A study of Mus musculus with 8 samples.

Results

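The neuronal splicing regulators described here are 10 genes, *Rbfox1*, *Rbfox2*, *Rbfox3*, *Nova1*, *Nova2*, *Celf2*, *Celf4*, *Ptbp2*, *Srrm4* and *Mbnl2*, of the 38553 genes in the deposited table. They were matched by gene symbol, and all 10 were found and passed the filter on low expression. The group was chosen by the dorsal and ventral FPKM of *Rbfox1*, known to be higher in dorsal medial entorhinal cortex (MEC), and its family and other neuronal splicing factors were added. The dorsoventral values of these genes are therefore given as a description, with no p-value for any of the 10 and with nothing supported by them. How many of them met the criteria applied to all genes is stated only for reference. RNA-Seq was made of dorsal and ventral MEC from 13 male C57BL/6JolaHsd mice aged 8 weeks, as 4 dorsal and 4 ventral libraries. The mice formed 4 groups, and a library pools the tissue of 3 or 4 mice, so replicate error here is the spread of pools and not of single animals. Both regions were cut from 1 sagittal slice of the right MEC per mouse, 400 µm thick. The samples thus hold every cell type of the tissue, and fewer cells of a type cannot be told apart from less RNA per cell.

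Alternative splicing lets 1 gene give several mRNAs, and in neurons the choice of exons is set largely by RNA-binding proteins that are abundant there. The Rbfox proteins bind the motif GCAUG near exons, where their position decides whether the exon is kept or skipped. The Nova proteins bind clusters of YCAY, the Celf proteins bind GU-rich RNA, the Mbnl proteins bind YGCY motifs, and Ptbp2 is a repressor bound to pyrimidine-rich tracts. Srrm4 promotes the inclusion of very short neuronal exons. Rbfox3 is the antigen known as NeuN, the usual stain for mature neurons.

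The coding sequences of the closest relatives are printed because a comparison of *Rbfox1* with *Rbfox2*, or of *Nova1* with *Nova2*, needs fragments that can be told apart. The windows are the 120 coding bases, aligned without gaps, with the fewest differences from *Rbfox1* or from *Nova1* in the longest coding sequences. For the Rbfox family, the differences of *Rbfox2* and *Rbfox3* were summed. That window need not be the stretch where *Rbfox1* and *Rbfox2* alone are most alike. They are from GENCODE M21 transcripts on GRCm38, written 5′ to 3′ on the coding strand, with capitals at each position where the genes printed together differ.
Rbfox1: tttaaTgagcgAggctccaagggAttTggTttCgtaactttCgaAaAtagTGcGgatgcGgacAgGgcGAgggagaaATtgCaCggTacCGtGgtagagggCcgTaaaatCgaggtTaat
Rbfox2: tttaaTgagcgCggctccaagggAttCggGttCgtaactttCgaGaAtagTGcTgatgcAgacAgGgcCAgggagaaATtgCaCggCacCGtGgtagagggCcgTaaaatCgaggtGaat
Rbfox3: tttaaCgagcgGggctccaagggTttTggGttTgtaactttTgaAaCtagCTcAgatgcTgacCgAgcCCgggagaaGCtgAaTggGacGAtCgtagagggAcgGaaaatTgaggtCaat
Nova1: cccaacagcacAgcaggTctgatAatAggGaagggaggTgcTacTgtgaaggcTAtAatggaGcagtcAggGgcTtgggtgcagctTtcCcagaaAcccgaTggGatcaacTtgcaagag
Nova2: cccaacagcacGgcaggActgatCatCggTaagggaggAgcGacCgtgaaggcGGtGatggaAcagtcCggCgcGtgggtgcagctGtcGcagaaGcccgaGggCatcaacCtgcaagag
The *Rbfox1* window lies on the + strand of chromosome 16 in 3 exons, from 7285511 to 7285531, from 7292185 to 7292277 and from 7294070 to 7294075. The *Rbfox2* window is on the − strand of chromosome 15 between 77102934 and 77113625, and the *Rbfox3* window is on the − strand of chromosome 11 between 118501624 and 118503740. Both are split into 3 exons like that of *Rbfox1*. The *Nova1* window lies within exon 5 of 5 on the − strand of chromosome 12, from 46700839 to 46700958, and the *Nova2* window within exon 4 of 4 on the + strand of chromosome 7, from 18957551 to 18957670. In these stretches *Rbfox2* was 92.5% and *Rbfox3* 77.5% identical to *Rbfox1*, and *Nova2* was 82.5% identical to *Nova1*. The capitals fall at 29 positions in the Rbfox family and at 21 in the Nova pair. The longest identical run between whole coding sequences was 29 bases for *Rbfox1* and *Rbfox2* and 17 for *Rbfox1* and *Rbfox3*. It was 14 for *Rbfox2* and *Rbfox3* and 15 for *Nova1* and *Nova2*. The Nova run is a repeat of CAG that starts at coding base 1063 of *Nova1* and 159 of *Nova2*, which are not matching places.

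Over whole transcripts, no stretch of 50 bases of *Rbfox1*, *Rbfox2*, *Rbfox3* or *Ptbp2* was found in a transcript of another gene, on either strand. The exons of *Nova2* share 30.8% of their 50-base stretches with *Gm26821*, a gene on the opposite strand. Those of *Celf2* share 6.96% with *Gm26565*, also on the opposite strand, and those of *Nova1* share 3.00% with *Gm33869* on the same strand. Whether strand was kept in the libraries is not given in the sources used here, so the values of *Nova2* and *Celf2* are uncertain by the fragments of these overlapping genes. The overlap of *Nova1* is on the same strand, so its values are uncertain by such fragments in either case. For *Celf4*, *Srrm4* and *Mbnl2* the shared stretches came to at most 0.388%.

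The deposited position of *Rbfox1* (ENSMUSG00000008658) runs over 603.3 kb of chromosome 16, from 6809222 to 7412479. GENCODE M21 gives the gene 1526.2 kb, from 5885355 to 7411526. Of the 2 *Rbfox1* start sites that RefSeq lists on GRCm38, the one at 7069835 lies inside the deposited position and the one at 5884793 lies 924.4 kb outside it. Whether fragments from exons near that outer start site entered the *Rbfox1* values was not tested. The deposited positions of the other Rbfox and Nova genes are within 1 kb of the GENCODE ones. They place *Rbfox2* (ENSMUSG00000033565) at 77078990 to 77307053 on chromosome 15, *Rbfox3* (ENSMUSG00000025576) at 118489762 to 118911597 on chromosome 11, *Nova1* (ENSMUSG00000021047) at 46694517 to 46818775 on chromosome 12 and *Nova2* (ENSMUSG00000030411) at 18925888 to 18965319 on chromosome 7.

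Values are FPKM, the fragments of a gene per kilobase of its exons and scaled to the fragments mapped in the library, as the authors obtained them from Cuffdiff 2. The 8 columns are headed D1 to D4 and V1 to V4. The columns D1, V1, D2 and V2 were taken as dorsal and D3, V3, D4 and V4 as ventral, because their means equal the dorsal and ventral means in the authors' comparison table. This held for 24180 of 24195 genes above 0 within 0.1%, against 1193 genes when the headers were taken at their word. For 4 of the 8 libraries (V1, V2, D3 and D4) the header therefore gives a region other than the one used, and every dorsoventral statement below depends on the means having placed the columns correctly. With the headers' regions, the ratios of 7 of the 10 splicing regulators had the opposite sign, and 0 of them passed the criteria given below. Fragment totals were not used here, so depth is unknown.

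All 10 splicing regulators were well expressed in MEC. The lowest mean over the 8 libraries, the 13.2 FPKM of *Nova1*, was above that of 64.6% of the 13674 genes tested, and *Celf4* and *Celf2* were each above 98.9% of them. In order of mean level, *Celf4* had 196.8 FPKM, *Celf2* 193.6, *Mbnl2* 82.3, *Rbfox1* 76.0, *Rbfox3* 60.8, *Rbfox2* 24.9, *Ptbp2* 19.5, *Nova2* 18.0, *Srrm4* 17.0 and *Nova1* 13.2. FPKM is per length of exon, so levels of different genes can be set side by side as a rough order. A bias of a gene that is common to all libraries would stay in these levels. Examples are the shared stretches and the *Rbfox1* position described above, and their part in the order was not tested. The 10 levels fall into 3 ranges, with the Celf genes on top, *Mbnl2*, *Rbfox1* and *Rbfox3* in the middle and the other 5 at the bottom.

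Neighbours in this order were compared within libraries on log2(FPKM + 1) by an exact paired permutation test, two-sided and adjusted over the 9 neighbouring pairs. The test takes the 8 libraries as independent, but they come from 4 groups of mice, each of which gave tissue of both regions. Its p-values are therefore too small, and with 4 groups as the units the smallest p would be 0.125. Neighbours were also set by the ranking of the same 8 libraries, so the direction of each pair came from the values tested. The sizes and the number of libraries are the firmer part of what follows. *Celf2* was above *Mbnl2* by 1.23 ± 0.12 log2 units (SD, n = 8 libraries) and *Rbfox3* above *Rbfox2* by 1.25 ± 0.18, each in 8 of 8 libraries (exact permutation p = 0.00781, adjusted p = 0.0234). *Rbfox2* was above *Ptbp2* in 8 of 8 libraries by 0.34 ± 0.12, with the same exact p. *Rbfox1* was above *Rbfox3* by 0.30 ± 0.22 in 7 of 8 libraries, the exception being the ventral library D4. The ratio of *Rbfox1* to *Rbfox3* was 1.28 to 1.54 dorsally and 0.888 to 1.22 ventrally. Since *Rbfox1* was chosen by these values, the difference is a description and no p-value is given for it. *Srrm4* was above *Nova1* by 0.36 ± 0.24, also in 7 of 8 libraries (exact permutation p = 0.0156, adjusted p = 0.0281). For the other 4 pairs, *Celf4* and *Celf2*, *Mbnl2* and *Rbfox1*, *Ptbp2* and *Nova2*, and *Nova2* and *Srrm4*, the order was the same in 5 or 6 of the 8 libraries and the test did not pass (exact permutation p from 0.0781 to 0.82). With 8 libraries 5 pairs passed, that of *Rbfox1* and *Rbfox3* counted for reference. When the library V1, D2, V2, D3, V3 or V4 was left out, 3 passed. The smallest p that the test can give is larger with fewer libraries, so this drop cannot be read as dependence on those libraries.

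*Rbfox1*, a nuclear and cytoplasmic regulator of exons in synaptic and ion channel transcripts, was higher in every dorsal library than in any ventral one. Its FPKM was 86.8 in D1, 83.2 in V1, 82.8 in D2 and 93.4 in V2, the dorsal libraries, and 66.9 in D3, 66.0 in V3, 56.2 in D4 and 72.9 in V4, the ventral ones. D4 was the lowest of all and V2 the highest. The mean was 86.6 ± 4.91 FPKM (SD, n = 4) in dorsal and 65.5 ± 6.89 FPKM (SD, n = 4) in ventral MEC, which is 32.1% more dorsally, with a log2(V/D) of −0.40.

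*Rbfox2*, the family member expressed most widely outside neurons, showed the opposite order at lower levels. It had 24.3 FPKM in D1, 22.7 in V1, 24.1 in D2 and 23.7 in V2 dorsally, and 27.8 in D3, 25.3 in V3, 25.99 in D4 and 25.4 in V4 ventrally. The groups did not overlap, but they lay close together, with 24.3 FPKM as the highest dorsal and 25.3 FPKM as the lowest ventral value. The means were 23.7 ± 0.709 and 26.1 ± 1.17 FPKM (SD, n = 4 each), so that log2(V/D) was 0.14, under the 20% difference used as a criterion.

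*Rbfox3* had 56.5 FPKM in D1, 61.6 in V1, 64.9 in D2 and 69.7 in V2 dorsally. Ventrally it had 54.7 in D3, 55.8 in V3, 63.4 in D4 and 59.9 in V4. The regions overlapped, and log2(V/D) was −0.11. The library D4, which was the lowest in *Rbfox1*, was the highest ventral one in *Rbfox3*.

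Summed over the 3 genes, Rbfox FPKM was 173 ± 9.13 dorsally and 150.1 ± 5.61 ventrally (SD, n = 4 each). *Rbfox1* made up between 48.2 and 51.8% of this sum in the dorsal libraries and between 38.6 and 46.1% in the ventral ones. The share of *Rbfox2* was 12.7 to 14.5% dorsally and 16.1 to 18.6% ventrally, so that neither share overlapped between regions. These shares carry the values that chose *Rbfox1* and were not tested. A share that leaves *Rbfox1* out, *Rbfox3* as a percent of *Rbfox2* plus *Rbfox3*, was 72.7 ± 1.98% dorsally and 69.1 ± 2.04% ventrally (SD, n = 4 each), a difference of −3.6 percentage points. The regions overlapped in this share, and leaving out 1 library at a time gave differences of −4.51 to −2.67 points. Both genes joined the group with the dorsoventral results known, so this difference is a description and no p-value is given for it.

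**Figure D1:**
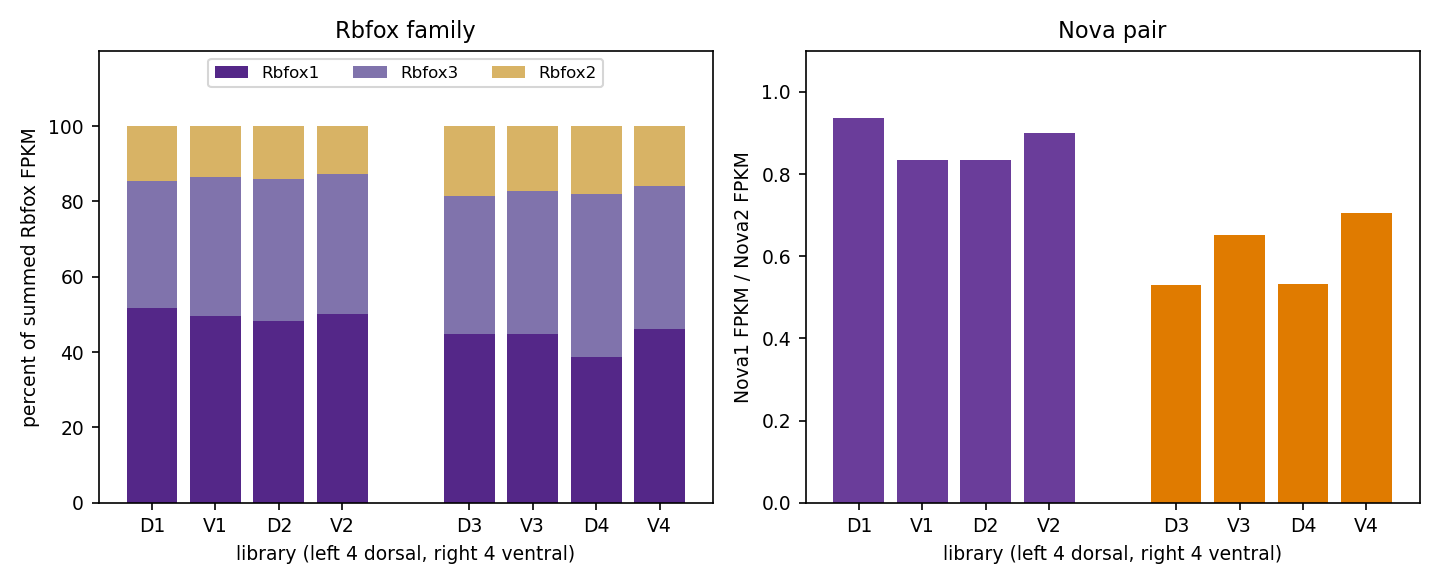
Left: share of *Rbfox1*, *Rbfox3* and *Rbfox2* in their summed FPKM, in percent, per library. Right: *Nova1* FPKM divided by *Nova2* FPKM per library, with the 4 dorsal libraries on the left of each panel and the 4 ventral ones on the right. *Rbfox1* made up 48.2 to 51.8% dorsally and 38.6 to 46.1% ventrally, and the Nova ratio was 0.833 to 0.936 dorsally and 0.531 to 0.706 ventrally.

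The Nova pair, named for the antigens of a paraneoplastic disorder, had a negative ratio for *Nova1* and a positive one for *Nova2*. *Nova1* had 15.5 FPKM in D1, 13.4 in V1, 14.6 in D2 and 16.3 in V2 dorsally, and 10.6 in D3, 11.9 in V3, 10.6 in D4 and 12.5 in V4 ventrally. All dorsal libraries were above all ventral ones. The means of *Nova1* were 15.0 ± 1.28 and 11.4 ± 0.971 FPKM (SD, n = 4 each) and gave a log2(V/D) of −0.39. *Nova2*, the form more typical of cortex, had 16.6 FPKM in D1, 16.0 in V1, 17.6 in D2 and 18.2 in V2 dorsally. Ventrally *Nova2* had 19.9 FPKM in D3, 18.3 in V3, 19.98 in D4 and 17.8 in V4. Here V4 fell below the dorsal V2, so the regions overlapped, and log2(V/D) was 0.15. The ratio of *Nova1* to *Nova2* was 0.876 ± 0.0509 dorsally and 0.605 ± 0.0876 ventrally (SD, n = 4 each) and did not overlap.

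*Celf2* and *Celf4*, the 2 most abundant of the 10, differed in their ratios. *Celf4*, a regulator of mRNA stability and translation in excitatory neurons, had 178.4 FPKM in D1, 155.6 in V1, 185 in D2 and 203.3 in V2 dorsally. Ventrally *Celf4* had 219.4 FPKM in D3, 204.2 in V3, 193.7 in D4 and 234.4 in V4. Only D4 fell within the dorsal range, and with means of 180.6 ± 19.7 and 212.9 ± 17.8 FPKM (SD, n = 4 each) log2(V/D) was 0.24. *Celf2* ranged from 176.3 to 216.7 FPKM dorsally and from 177.4 to 218.1 FPKM ventrally, nearly the same span, and its log2(V/D) was −0.05.

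The last 3 regulators had no clear order of the regions. *Mbnl2*, a muscleblind protein that promotes adult exon choices in brain, ranged from 77.9 to 92.4 FPKM dorsally and from 71.0 to 86.0 ventrally, with a log2(V/D) of −0.12. *Ptbp2*, which holds back adult exons in young neurons, ranged from 18.4 to 20.6 FPKM dorsally and from 18.2 to 21.7 ventrally, with 0.02. *Srrm4* ranged from 15.4 to 20.5 FPKM dorsally and from 15.6 to 18.5 ventrally, with 0.03. The library V2 alone set the top of the dorsal *Srrm4* range, the other dorsal libraries lying between 15.4 and 15.8 FPKM.

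**Figure D2:**
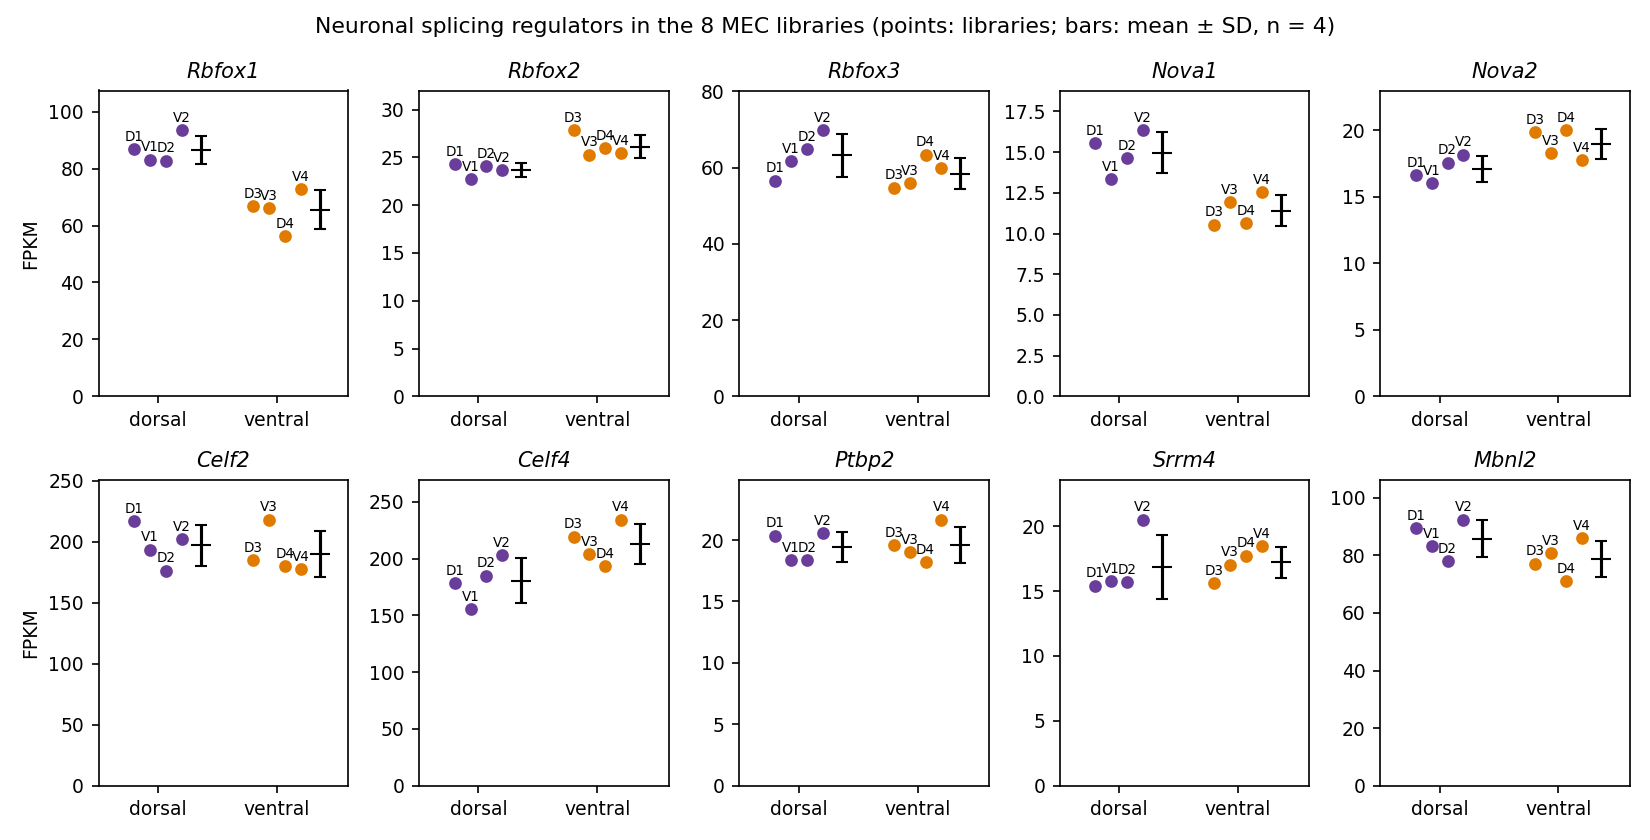
FPKM of the 10 splicing regulators (vertical axes from 0, in FPKM) in each dorsal (purple) and ventral (orange) library, labelled by its column header, with the mean ± SD of 4 libraries as black bars. *Rbfox1* and *Nova1* lie higher in all dorsal libraries and *Rbfox2* in all ventral ones, while the regions overlap for the other 7.

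The library V2 was the highest dorsal library for 8 of the 10 genes, all but *Rbfox2* and *Celf2*, and V4 was the highest ventral library for 6 of the 10. These were also the libraries in which the FPKM of all tested genes summed highest, to 337200 in V2 and 328300 in V4, against 294300 to 309800 in the other 6. The part of this total in the values was not tested. With each library brought to 1 total FPKM, log2(V/D) was −0.35 for *Rbfox1*, −0.34 for *Nova1*, 0.19 for *Rbfox2*, 0.20 for *Nova2* and 0.29 for *Celf4*, and *Celf2* came to 0.00. All 10 ratios were higher on this scale, on which the median fitted log2 difference of all genes was 0.04 in place of −0.01.

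Genes were called D>V or V>D where limma gave an adjusted p under 0.05 over all 13674 genes tested and log2(V/D) was beyond 0.263 in either direction, a 20% difference. Among all genes, 294 were D>V and 198 were V>D, together 3.6%, with 2.15% D>V and 1.45% V>D. An unadjusted p under 0.05 was found for 2191 genes, 16.0% of those tested. Of the 10 splicing regulators, *Rbfox1* and *Nova1* met the criteria for D>V and 0 those for V>D. The regions did not overlap for 3 of the 10, where 11.1% of all genes did not, with dorsal above in 6.17% and ventral above in 4.95%. Since the genes were chosen with this contrast known, nothing is read from these counts. The median log2(V/D) of the 10 was −0.02, with 5 ratios below 0 and 5 above, and that of all genes tested was 0.00 (−0.005).

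Without 1 library at a time, log2(V/D) of *Rbfox1* was −0.40 without D1, −0.42 without V1, −0.42 without D2, −0.36 without V2 and −0.41 without D3, and it met the criteria in 0 of these 5 fits. Without V3, D4 or V4, *Rbfox1* met them with −0.41, −0.34 and −0.46. *Nova1* met them without V1 and without V4, at −0.44 each. It did not without D1 (−0.37), D2 (−0.40), V2 (−0.35), D3 (−0.36), V3 (−0.41) or D4 (−0.36), nor with each library at 1 total FPKM. Since the same 8 libraries chose the group, these values describe how the counts depend on single libraries and are no test of either gene. With only D1, D2, V3 and V4, the libraries whose headers name the region used here, log2(V/D) was −0.29 for *Rbfox1* and −0.31 for *Nova1*, and limma called 0 of all genes, with 1240 at an unadjusted p under 0.05.

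**Figure D3:**
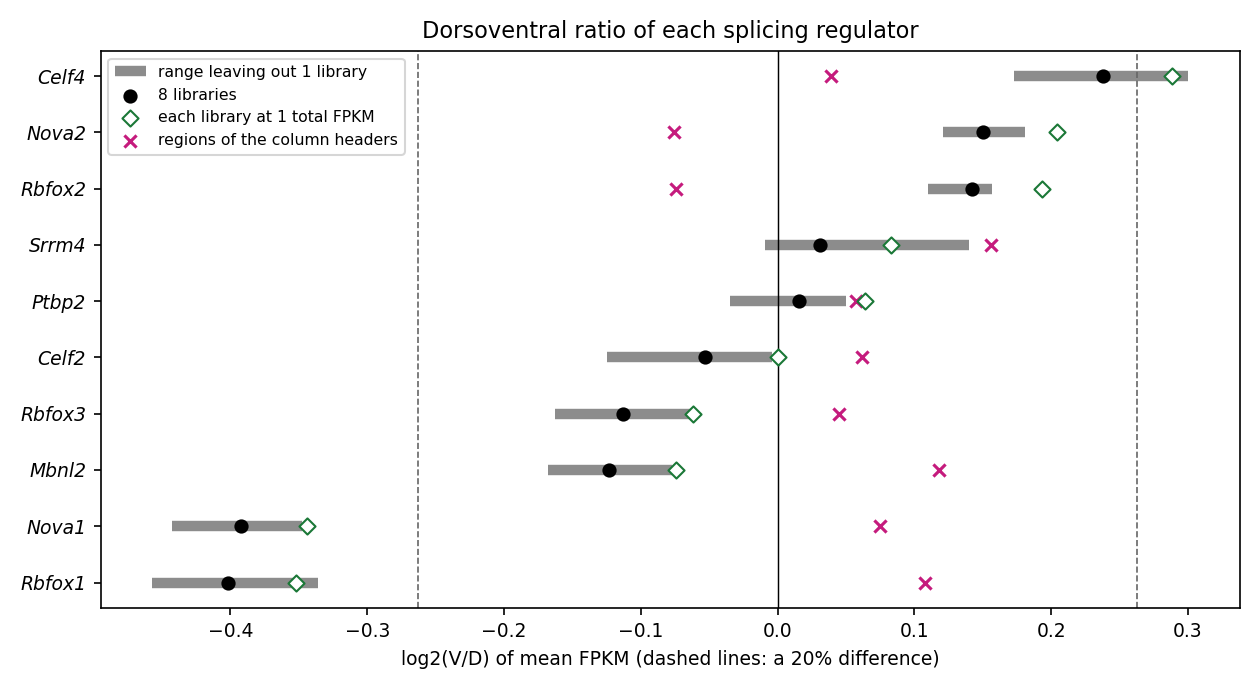
Ratio of ventral to dorsal mean FPKM, log2(V/D), of the 10 splicing regulators with 8 libraries (black), its range when 1 library is left out (grey), with each library at 1 total FPKM (diamonds) and with the regions that the column headers name (crosses). Dashed lines mark a 20% difference. *Rbfox1* at −0.40 and *Nova1* at −0.39 lie beyond it dorsally in every fit without 1 library, and all crosses lie inside it.

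To set these genes beside the rest of their pathway, 17 relatives and other splicing factors were taken, of which 16 were tested and *Mbnl3* had too few alignments. Among them 1 was V>D and 0 were D>V, against 1.45% and 2.15% of all genes. An unadjusted p under 0.05 was found for 4 of the 16, beside the 16.0% of all genes. Their median log2(V/D) was 0.00 (0.004). The gene called was *Celf3*, a neuronal Celf protein, with 19.9 FPKM in D1, 19.98 in V1, 21.5 in D2 and 19.2 in V2 dorsally, and 27.7 in D3, 22.9 in V3, 27.5 in D4 and 25.1 in V4 ventrally. All ventral libraries were above all dorsal ones, with a log2(V/D) of 0.36 (limma, adjusted p = 0.0323). When 1 library was left out, the *Celf3* call was kept only without V3. Most such fits also called fewer of all genes, with 247 without V1 and 532 without V3, against 492 with 8 libraries. The adjusted p from limma was 0.0823 without D1, 0.0968 without V1, 0.0521 without D2, 0.0879 without V2, 0.106 without D3, 0.0862 without D4 and 0.0601 without V4, and it was 0.0158 without V3. Over these fits log2(V/D) of *Celf3* was 0.32 to 0.41.

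Of the other neuronal Celf genes, *Celf6* had the largest log2(V/D) of the list, 0.46, but its regions overlapped and it did not pass (limma, adjusted p = 0.165). *Qk*, the quaking gene, which is abundant in glia and regulates myelin transcripts, had 93.0 to 109.6 FPKM dorsally and 76.2 to 87.3 ventrally. Its regions did not overlap and its log2(V/D) was −0.29, yet it missed the threshold (limma, adjusted p = 0.0595), and it passed when libraries were weighted by quality (limma, adjusted p = 0.0419). *Qk* had the highest mean of the list with 91.5 FPKM, ahead of *Elavl4* with 89.8 FPKM and a log2(V/D) of −0.20 and *Khdrbs3* with 42.7 FPKM and −0.02. Neither of the latter passed (limma, adjusted p of 0.406 and 0.937).

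No member of the lists of general splicing factors passed the test. Of 15 SR proteins and related activators 0 passed in limma, beside 3.6% of all genes. An unadjusted p under 0.05 was found for 2 of the 15, where 16.0% of all genes had one, and the median log2(V/D) was 0.00 (0.003). The most abundant were *Srsf2* at 122.1 FPKM, *Srsf5* at 109.8 and *Srsf11* at 98.1, with log2(V/D) of 0.03, −0.06 and −0.07. The largest ratios were those of *Srsf12* (0.24), *Tra2b* (−0.23) and *Srsf4* (0.17), with limma adjusted p of 0.13, 0.469 and 0.268. Of 19 hnRNPs, which mostly repress exons or package RNA, 0 passed in limma, beside the same 3.6% of all genes. Lists of 15 and 19 genes are too small to read anything from a lack of calls at that share. Of the 19, 1 had an unadjusted p under 0.05, against the same 16.0%, and the median was 0.01. *Hnrnpd* at 152.5 FPKM, *Hnrnph1* at 147.8 and *Hnrnpu* at 116.2 were the most abundant and had ratios of 0.04, 0.05 and −0.03. The largest ratios were those of *Raly* (−0.32), *Hnrnpk* (0.11) and *Hnrnpa1* (−0.10), with limma adjusted p of 0.287, 0.591 and 0.784.

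**Figure D4:**
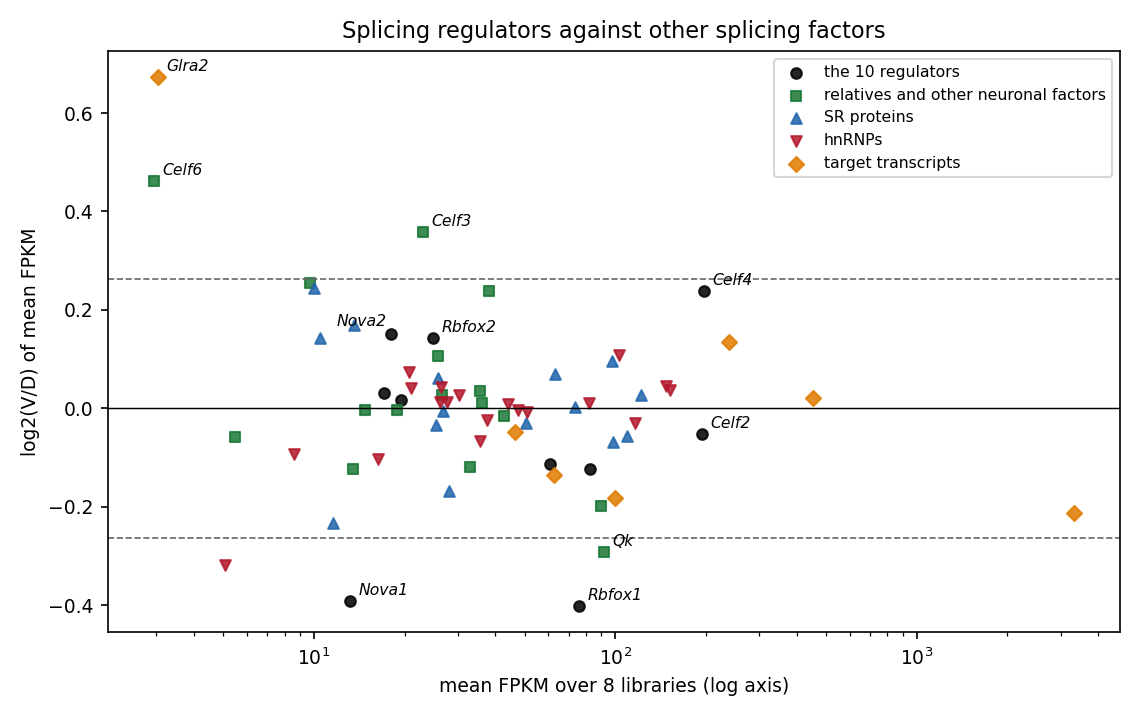
Mean FPKM over the 8 libraries (log axis) against log2(V/D) for the 10 splicing regulators (black) and for 4 lists of other splicing genes and target transcripts, with dashed lines at a 20% difference. *Rbfox1* and *Nova1* lie at the lower edge, and *Raly* at −0.32 and *Qk* at −0.29 also lie below the lower line, without passing the test. *Celf3* at 0.36, *Celf6* at 0.46 and *Glra2* at 0.67 lie above the upper line, *Celf6* without passing the test. The SR proteins lie between −0.23 and 0.24.

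Exon choice itself cannot be seen in gene-level FPKM, so for 7 transcripts with well-known exons regulated by these proteins only the total level was compared. They included *Glra2*, *Grin1*, *Dlg4*, *Snap25* and *Mapt*. Of the 7, 1 was V>D and 0 were D>V, beside 1.45% and 2.15% of all genes, and 2 had an unadjusted p under 0.05, beside 16.0% of all genes. *Glra2*, a glycine receptor subunit with an exon regulated by Nova, was the gene called. Its FPKM was 2.45 in D1, 2.27 in V1, 2.43 in D2 and 2.24 in V2 dorsally, and 3.52 in D3, 3.73 in V3, 3.42 in D4 and 4.31 in V4 ventrally, without overlap. With a log2(V/D) of 0.67 (limma, adjusted p = 0.012) *Glra2* was called without each library in turn, though at a low level that a minimum of 5 FPKM would leave out. *Snap25*, a protein of synaptic vesicle fusion and the most abundant of the list at 3320 FPKM, had a log2(V/D) of −0.21 (limma, adjusted p = 0.519). *Dlg4*, a scaffold protein of excitatory synapses, had 237.9 FPKM and 0.13 (limma, adjusted p = 0.56).

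The pattern of *Rbfox1* over the 8 libraries was compared with that of all other tested genes by Pearson's r of log2(FPKM + 1), as a description. Both genes of a pair come from the same libraries and share their scaling and their region, and the highest of 13673 values are large by selection. The 5 most similar genes were *Rgs7bp* (r = 0.99, n = 8), *Slc1a1* (0.987), *Senp5* (0.985), *Rgs17* (0.982) and *Cacnb4* (0.981). All 5 had a negative log2(V/D), from −0.25 for *Slc1a1* to −0.48 for *Cacnb4*. *Rgs7bp* and *Rgs17* belong to the regulation of G-protein signalling, *Slc1a1* is a neuronal glutamate transporter, *Senp5* a SUMO protease and *Cacnb4* a calcium channel subunit.

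Once the mean of each region was subtracted, the genes most like *Rbfox1* were others, namely *AI597468* (r = 0.987, n = 8), *Armc1* (0.984), *Siah1a* (0.98), *Ppp4r2* (0.979) and *Rab3c* (0.977). Their log2(V/D) lay between −0.18 and 0.04. Among the splicing regulators, *Nova1* was closest to *Rbfox1* over the 8 libraries (r = 0.936), followed by *Mbnl2* (0.825), while *Rbfox2* (−0.736) and *Nova2* (−0.73) were the most unlike. Within regions the order was *Mbnl2* (0.892), *Ptbp2* (0.875), *Celf4* (0.767) and *Nova1* (0.713), and *Rbfox2* came to −0.01 (−0.005). *Celf4* thus ran against *Rbfox1* between the regions (r = −0.364 over the 8 libraries) and with it between the libraries of a region.

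**Figure D5:**
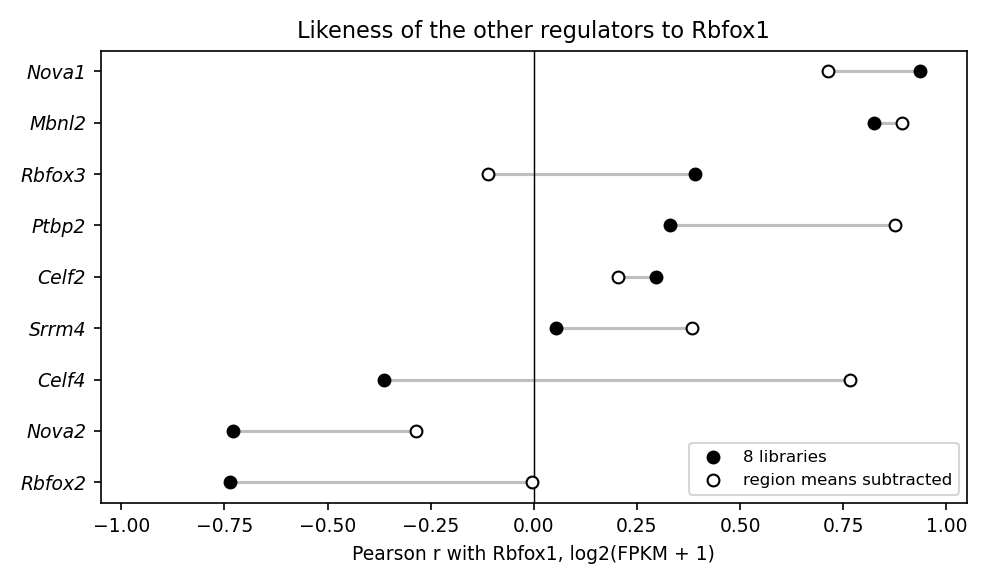
Pearson's r with *Rbfox1* of the other 9 splicing regulators over the 8 libraries, on log2(FPKM + 1), before (filled) and after (open) subtracting the mean of each region. *Nova1* moves from 0.936 to 0.713, *Celf4* from −0.364 to 0.767 and *Rbfox2* from −0.736 to −0.005.

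The tissue label was checked against markers of the cells that the slices could hold. *Reln* (31.7 FPKM dorsally, 35.8 ventrally), *Wfs1* (76.6 and 52.5), *Calb1* (4.57 and 7.85) and *Cux2* (13.6 and 12.9), found in superficial entorhinal layers, were all detected. Of these 4, *Wfs1* was D>V (limma, adjusted p = 0.0133) and *Calb1* was V>D (limma, adjusted p = 0.0306). The choroid plexus markers *Ttr* and *Folr1* were at or near 0, with means under 0.1 FPKM in both regions, while the third, *Kl*, had 1.07 FPKM dorsally and 1.18 ventrally and was not called. Summed FPKM of 5 pan-neuronal markers was 1360 to 1400 dorsally and 1310 to 1360 ventrally, and 0 of the 5 were called. Of 5 oligodendrocyte markers all were D>V, their sum being 767 to 1020 FPKM dorsally and 422 to 555 ventrally. Of 4 leptomeningeal markers 3 were tested and 1, *Dcn*, was V>D, with 24.3 FPKM dorsally and 48.4 ventrally. The tested 3 summed to 25.5 to 34.3 FPKM dorsally and 48.6 to 62.5 ventrally, most of it *Dcn*, and the regions overlapped for *Col1a2* and *Lum*. Of 5 glutamatergic markers 1, *Slc17a6*, was D>V, with sums of 239 to 270 FPKM dorsally and 221 to 244 ventrally, and of 5 GABAergic markers 0 were called. Of 5 astrocyte markers, which summed to 154 to 164 FPKM dorsally and 171 to 185 ventrally, 0 were called. Of 4 precursor markers 1, *Olig1*, was D>V. *Pdgfra* (8.32 FPKM dorsally, 9.99 ventrally) and *Cspg4* (1.135 and 1.472) went the other way. For both, all ventral libraries were above all dorsal ones, as for 4.95% of all genes, and neither was called. The regions overlapped for *Olig2*. Among microglial markers 0 of 5 were called, and among endothelial markers 0 of 4. The part of these differences in the values of *Rbfox1*, *Nova1*, *Qk* and the other splicing genes was not tested.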

How the data were processed

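RNA-Seq libraries were made from pooled dorsal or ventral MEC, 4 per region. The submitters' processing notes name CASAVA 1.8, TopHat2 2.0.8 and Cuffdiff. The deposited values are FPKM per gene and library, which the authors computed with Cuffdiff 2 on the Ensembl annotation of the mouse genome (GRCm38), summed over transcripts and scaled between libraries. cDNA was amplified from 120 ng of RNA with integrity numbers of 7.1 to 8.5. The authors' own fold change, p-value and q-value columns were not used. A long table that names libraries only by condition and replicate could not be matched to samples, so 4 columns with values per sample were left out, no count test was run and depth is unknown.

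The splicing regulators and all gene lists were chosen with earlier results of these data known. Genes with enough alignments per the authors and a mean FPKM of at least 1 were tested with limma 3.58.1 (R 4.3.3, mean-variance trend) on log2(FPKM + 1), ventral minus dorsal, which understates changes of low genes. P-values were adjusted over all genes by the Benjamini-Hochberg method. The script was tested on simulated data. Exact permutation tests were run in Python 3.11.15 (NumPy 2.4.6, pandas 2.3.3) and figures were drawn with matplotlib 3.10.9. The text names the 10 regulators, each called gene of the other splicing lists, the 3 most abundant and the 3 with the largest ratio of each such list, the 5 genes most like *Rbfox1* in either measure, and the marker genes, and some genes this rule takes are not reported here. Sequences and positions are those of GENCODE M21, start sites those of RefSeq (GRCm38.p6), with start sites found for 8 of the 10 genes. *Qk*, *Hnrnpr* and *Cux2* have 2 identifiers each in the table, and the one GENCODE gives that symbol was used. Since libraries are pools, p-values measure the spread between pools only. Alternatives covered the added constant, the FPKM filter, scaling, library weights, the regions of the headers and leaving out each library.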

Additional observations from a re-analysis of the deposited data

Results flagged for a closer look

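*Srrm4* stood apart in 1 dorsal library. Its value in V2 was 20.5 FPKM (20.51), and the gap to the next dorsal library, which had 15.8 FPKM, as a part of the range of the 4 dorsal values exceeded the 95% critical value of Dixon's test. This was 1 of the 20 sets of 4 libraries examined for the 10 genes, and chance flags about 1 in 20. Without V2, log2(V/D) of *Srrm4* was 0.14 in place of 0.03.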

How the results depend on the processing

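With the regions that the column headers name, log2(V/D) turned to 0.11 for *Rbfox1* and to 0.075 for *Nova1*, and the *Rbfox3* share of *Rbfox2* plus *Rbfox3* turned to 1.68 percentage points higher ventrally. In that setting 1 gene was called among all genes (721 at an unadjusted p under 0.05). Among the splicing regulators, the relatives and other splicing factors and the target transcripts, 0 were called. With the 4 libraries whose headers name the region used, 0 genes were called in each of these groups (1240 of all genes at an unadjusted p under 0.05). Such a fit has 2 libraries per region. Rescaling to 1 total FPKM left 1 regulator meeting the criteria, *Rbfox1*, which is a description since *Rbfox1* chose the group, and moved the balance of all calls from 59.8% to 49.2% D>V, with 195 D>V and 201 V>D. Quality weights gave 2 calls among the relatives and other splicing factors, *Celf3* and *Qk*, in place of 1. A minimum of 5 FPKM left 0 target transcripts called, since *Glra2* falls below it. Leaving out each library in turn gave 247 to 532 genes called in all, fewest without V1 (247) and D3 (254). Among them were 0 to 2 regulators, 0 to 1 of the relatives and other splicing factors and 1 target transcript. In the order of levels, 3 to 6 neighbouring pairs passed. The *Rbfox3* share differed by −4.51 to −2.67 points in these fits. SR proteins and hnRNPs had 0 calls in all 16 alternatives. Nothing is read from this, as only 3.6% of all genes were called in the main fit. *Rbfox1* kept its sign in 15 of 16 alternatives and *Nova1* in 15 of 16, the exception being the headers' regions. Most of this was fixed in advance, and nothing is read from it. The libraries of the regions do not overlap for either gene, so leaving libraries out cannot turn the sign. The constant, the FPKM filter and the weights do not enter log2(V/D). The cause of the changes between settings was not tested. Depth, which is not given here, sets the precision of low genes such as *Glra2*. No paired analysis was possible because the columns do not show which group of mice a library came from.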
